A study of Mus musculus with 4 samples.

Results

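Plasma cells were sought among human leukocytes sorted from the blood of humanised mice by 5 conditions on the UMIs (unique molecular identifiers, each standing for 1 captured transcript) of a cell barcode. These were more than 50% of UMIs on human genes, at least 500 human genes, at least 2 UMIs of MZB1, at least 1 UMI of TNFRSF17, and no UMI of CD3D, CD3E or CD3G. The first 2 conditions were met by 17715 cells of the 3 blood libraries (17842 with the spinal cord library), and all of them by 339 cells. Naïve blood held 321 of them, sham blood 7 and SCI blood 11, and none of the 127 human cells from the injured cord met them, which allows a share of up to 2.36% (3 counts of 127). The cells were thus chosen by the UMIs of MZB1, TNFRSF17 and the CD3 genes, and the B cells they are compared with by MS4A1, so values of these genes are given as description and support nothing.

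Plasma cells are the antibody-secreting end stage of the B lineage. On differentiation, the factors PRDM1 (Blimp-1), IRF4 and XBP1 replace the PAX5-led programme of B cells, surface antigen presentation is lost, and the endoplasmic reticulum (ER) expands to fold, glycosylate and export immunoglobulin. In blood such cells are mostly recently formed plasmablasts in transit to bone marrow or mucosa, some of them still dividing.

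The series followed human leukocytes in huNSG-SGM3 mice after spinal cord injury (SCI) by droplet scRNAseq. All hosts were NOD mice with the Prkdcscid and IL2rgtm1Wjl mutations, which remove mouse lymphocytes, and a transgene (1Eav/MloySzJ) for human IL3, CSF2 and KITLG under the CMV promoter, and had been engrafted as irradiated pups with CD34+ stem cells from human cord blood. Naïve hosts (male) had no surgery, sham hosts (male) had a thoracic laminectomy and SCI hosts (male and female together) a thoracic contusion, both sampled 7 days after surgery. The labels give an age of 15 weeks for every library. Live huCD45+ cells were sorted by FACS, so the gate can set which plasma cells were kept, and there was 1 library per condition. Condition and library therefore cannot be told apart, nor can host sex and injury for SCI blood, and no test between conditions was possible. The labels do not give the donors of the stem cells. All intervals below are exact 95% intervals that cover counting error only.

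The 3 blood libraries held between 34161760 and 36487994 UMIs, and the median cell between 3686 and 5236 human UMIs. Barcodes shared between any pair of blood libraries numbered 16 or fewer and none was a plasma cell of naïve blood.

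Plasma cells made up 4.87% (interval 4.36 to 5.42%) of human cells in naïve blood, 0.143% (0.0575 to 0.294%) in sham and 0.177% (0.0882 to 0.316%) in SCI blood. B cells, taken as MS4A1-positive cells without CD3 UMIs that were not plasma cells, accounted for 18.4% (1210 cells), 11.8% (576) and 14.6% (907). These shares describe 3 libraries and were not tested between conditions. With at least 4 MZB1 UMIs they were 4.73, 0.0817 and 0.0482% (312, 4 and 3 cells). In naïve blood the cells had 2 to 97 UMIs of MZB1 (median 30), an ER cochaperone of IgM assembly, and 1 to 20 of TNFRSF17 (median 4), the receptor BCMA. Markers that did not choose the cells were also found: JCHAIN, which joins IgM and IgA polymers, had a median of 170 UMIs and was at 0 in 1 cell, CD38 was found in 91.6%, DERL3 in 78.8%, SLAMF7 in 69.5% and PRDM1 in 62.0% of cells. The label therefore held for the naïve library, although SDC1 (CD138), the classical marker of mature plasma cells, was found in 28 cells (8.72%) with at most 3 UMIs.

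The operated libraries differed from this. The 7 cells of sham blood had 181, 65, 27, 8, 3, 2 and 2 UMIs of MZB1 and, in the same order, 2746, 4445, 1138, 1037, 20, 22 and 32 UMIs of IGHM, while XBP1 was at 48, 50, 6, 8, 0, 0 and 0. The last 3 of these had 12, 31 and 24 UMIs of MS4A1, and the one with 27 MZB1 UMIs had 67 of MS4A1 and 140 of HLA-DRA among 75348 UMIs in all. In SCI blood, the cells with 84 and 63 MZB1 UMIs had 2203 and 2058 of IGHM and 44 and 28 of XBP1. Of the other 9 SCI cells, 1 had 13 MZB1 UMIs and 8 had 2 or 3, all 9 had between 4 and 30 UMIs of MS4A1, and XBP1 was at 0 in 8 of them. For most of these 18 cells, the data thus went against the label. Scrublet scores barcodes that resemble a mixture of cells, and a preset share of each library with the highest scores was marked. This share was 5.57% of all human cells in sham, 6.01% in SCI and 6.49% in naïve blood. Marked were 3 of the 7 sham and 3 of the 11 SCI cells, and 16 of 321 (4.98%) in naïve blood. Among B cells, 1.22, 0.772 and 0.331% were marked in sham, SCI and naïve blood. The plot of MZB1 against IGHM shows how the chosen cells split, and what follows describes the naïve library.

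**Figure D1:**
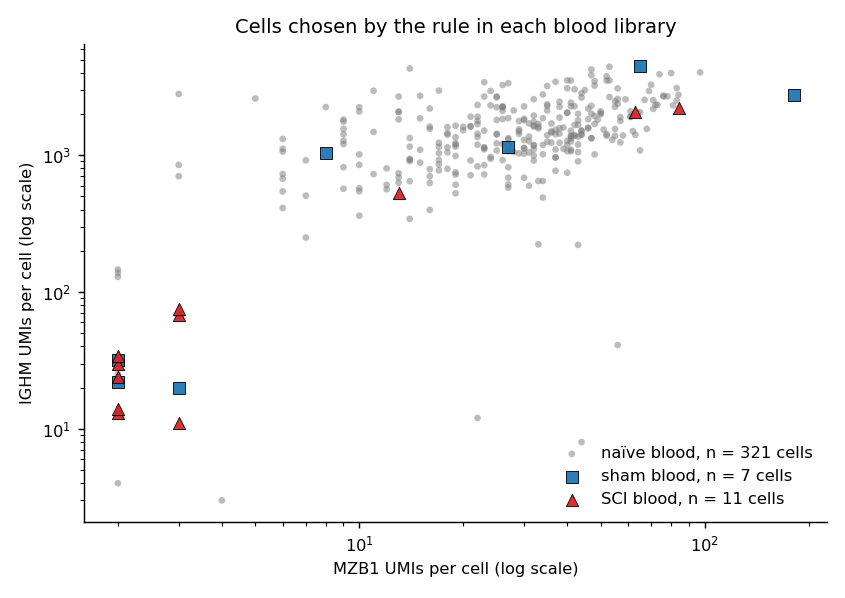
UMIs of MZB1 (x axis) and IGHM (y axis) per cell on log scales, with 1 point for each of the 321 naïve, 7 sham and 11 SCI cells that met the conditions. Most naïve cells lie in a cloud near the medians of 30 MZB1 and 1432 IGHM UMIs, which 4 of the sham cells and 3 of the SCI cells approach, while the others lie at 2 or 3 MZB1 UMIs.

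Cells near the limits of the conditions in naïve blood were as follows. The 6 plasma cells with exactly 2 MZB1 UMIs had a median of 0.5 UMIs of XBP1 and 12 of MS4A1, and the 7 cells just outside with 1 MZB1 UMI and a TNFRSF17 UMI had medians of 0 and 11. On the other side, 19 cells with at least 10 MZB1 UMIs but no TNFRSF17 UMI had medians of 961 IGHM and 83 JCHAIN UMIs. The absence of CD3 UMIs removed 59 cells, of which 32 had a single CD3 UMI and medians of 40 MZB1, 1576.5 IGHM and 11.5 XBP1 UMIs.

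Plasma cells of naïve blood were large in RNA content. Their median was 12390 human UMIs (2147 to 41173), which was 3.47 times that of B cells (3566), and 2825 human genes against 1509.5 in B cells. T cells were close to B cells, at 3561 UMIs. Immunoglobulin genes took a median of 22.7% of a plasma cell's UMIs, from 0.549 to 69.2%, compared with 1.76% in B cells. Mitochondrial transcripts took 5.77 against 11.0% and ribosomal protein transcripts 13.0 against 19.0%. When cells were thinned to 1000 UMIs outside these classes, plasma cells, B cells and T cells had a median of 694, 704 and 684 genes, so that the larger gene number was not seen at equal depth.

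Immunoglobulin usage was narrow. IGHM, the mu heavy chain, led the heavy chain classes in 317 of 321 plasma cells (98.8%, interval 96.8 to 99.7%), with 3 to 4504 UMIs per cell and a median of 1432, compared with a median of 16 in B cells. It also led in 1192 of 1204 B cells of this library with at least 3 heavy chain UMIs (99.0%). The leading class was thus not particular to plasma cells. Class-switched cells were few: 1 led by IGHA1 (1197 UMIs), 1 by IGHG1 (273) and 2 by IGHG3 (601 and 67), with 3 to 41 UMIs of IGHM. IGHD, coexpressed with IGHM in resting B cells, had a UMI in 4.36% of plasma cells against 69.5% of B cells. IGHA1 had a UMI in 76.0% of plasma cells (median 3 UMIs), 36.2% of B cells and 0.910% of T cells, which should lack it, at median depths of 12390, 3566 and 3561 UMIs.

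Light chain usage differed between plasma cells and B cells of the same library. Lambda exceeded kappa in 316 of 320 plasma cells with at least 3 light chain UMIs (98.8%, 96.8 to 99.7%), whereas B cells were 58.3% lambda in naïve (55.4 to 61.1%), 58.9% in sham and 59.1% in SCI blood. In the median plasma cell, 100% of light chain UMIs were of 1 kind. The 4 kappa cells had 2618, 1674, 39 and 9 IGKC UMIs. Of the operated libraries, 5 of 7 sham and 8 of 11 SCI cells were lambda.

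Variable segments were narrower still. Among the 255 naïve plasma cells with at least 3 IGLV UMIs, 252 (98.8%, 96.6 to 99.8%) were led by IGLV7-43 or IGLV7-46, near-identical segments that were counted together since reads can be split between them. The segments IGHV1-69 and IGHV1-69D, likewise joined, led in 170 of 202 cells with at least 3 IGHV UMIs (84.2%, 78.4 to 88.9%), followed by IGHV6-1 in 14, IGHV1-2 in 8 and IGHV3-33 in 4 cells. Both chains were assigned in 187 cells. Of these, 156 (83.4%) paired IGHV1-69 with the IGLV7-43 group, and the cells led by IGHV6-1 (14), IGHV1-2 (8), IGHV3-33 (4), IGHV4-39 (2) and IGHV4-4 (2) were also in the IGLV7-43 group. In B cells of the same library, the IGLV7-43 group held 54 of 179 IGLV UMIs (30.2%, 23.5 to 37.5%), against 7.35% in sham and 7.89% in SCI B cells, and IGHV1-69 held 24.5% of IGHV UMIs against 7.83% and 6.61%. Only 6 of the 1210 naïve B cells had at least 3 IGLV UMIs. T cells of naïve blood, which should lack these UMIs, had 8 of 15 IGLV UMIs on the IGLV7-43 group and 5 of 9 IGHV UMIs on IGHV1-69. T cells of sham and SCI blood had none on either. The part of stray UMIs in the B cell shares was not tested. The 57 IGLV UMIs of sham plasma cells and the 6 of SCI plasma cells included none of the IGLV7-43 group. The exact upper bounds were 6.27% in sham and 45.9% in SCI, where 6 UMIs say little. On IGHV1-69 were 0 of 22 IGHV UMIs of sham and 2 of 17 of SCI plasma cells. Reads from the 3′ end rarely reach the variable segment (6.46 IGLV UMIs per plasma cell against 1649 of the lambda constant genes), segments may differ in how often they are caught, UMIs of 1 cell are not independent draws, and whether these cells share a clone was not tested.

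**Figure D2:**
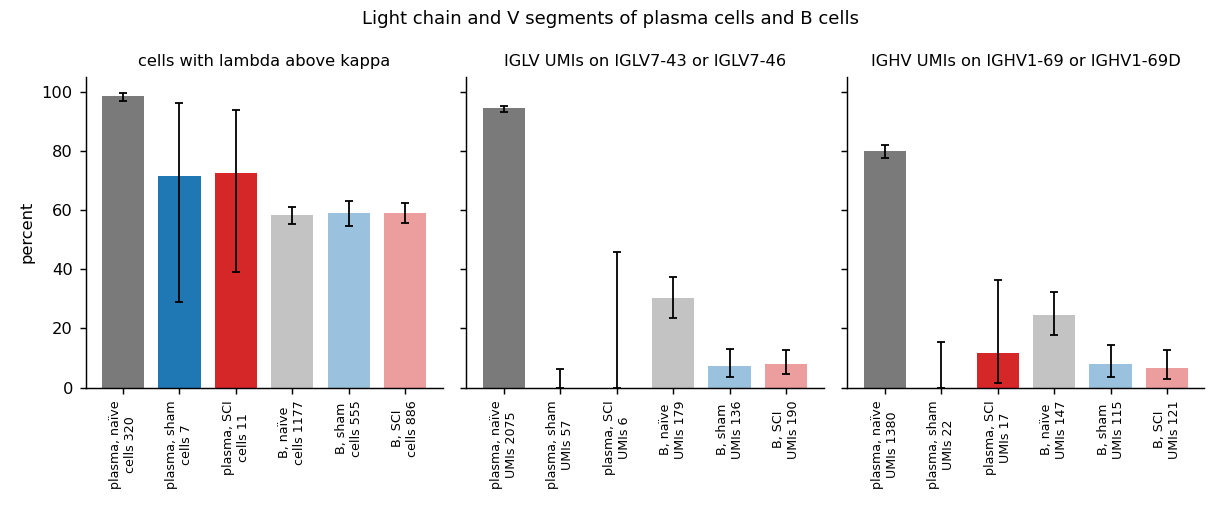
Percent of cells with more lambda than kappa UMIs (left), of IGLV UMIs on IGLV7-43 or IGLV7-46 (middle) and of IGHV UMIs on IGHV1-69 or IGHV1-69D (right), in plasma cells and B cells of each blood library, with exact 95% intervals and the number of cells or UMIs under each bar. Plasma cells of naïve blood reach 98.8, 94.4 and 79.9%, above their own library's B cells at 58.3, 30.2 and 24.5%.

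Immunoglobulin transcripts were also counted in T cells, which should lack them. IGHM had a UMI in 54.0% of T cells of naïve blood against 8.20% in sham and 6.93% in SCI, and JCHAIN in 11.0% against 0.613 and 0.952%. Light chain UMIs in naïve T cells were 2501 of lambda and 106 of kappa, while those of sham (78 and 75) and SCI (126 and 161) were mixed. The part of such UMIs in the B cell values above and below was not tested. Against B cells of sham blood, in place of naïve blood, no gene list with a median beyond 2-fold had a median that changed sign.

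For the expression programme, UMIs were summed over the 321 plasma cells and over the 1210 B cells of naïve blood and given as CPM, each gene's count scaled to 1000000 UMIs outside immunoglobulin, ribosomal and mitochondrial genes. With 1 library there is no test, and genes at least 2-fold apart are described. Of 10527 genes with at least 20 UMIs, 1544 were at least 2-fold higher in plasma cells (14.7%) and 2392 at least 2-fold lower (22.7%), and the median log2 ratio was −0.17. Among all calls, higher genes were 39.2%. This split depends on the scale: it was 19.7% with immunoglobulins kept in the total, which shifted the median ratio by −0.47, and 91.2% on mean UMIs per cell with no scaling, which shifted it by 1.58. Ratios below are on the first scale unless stated.

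**Figure D3:**
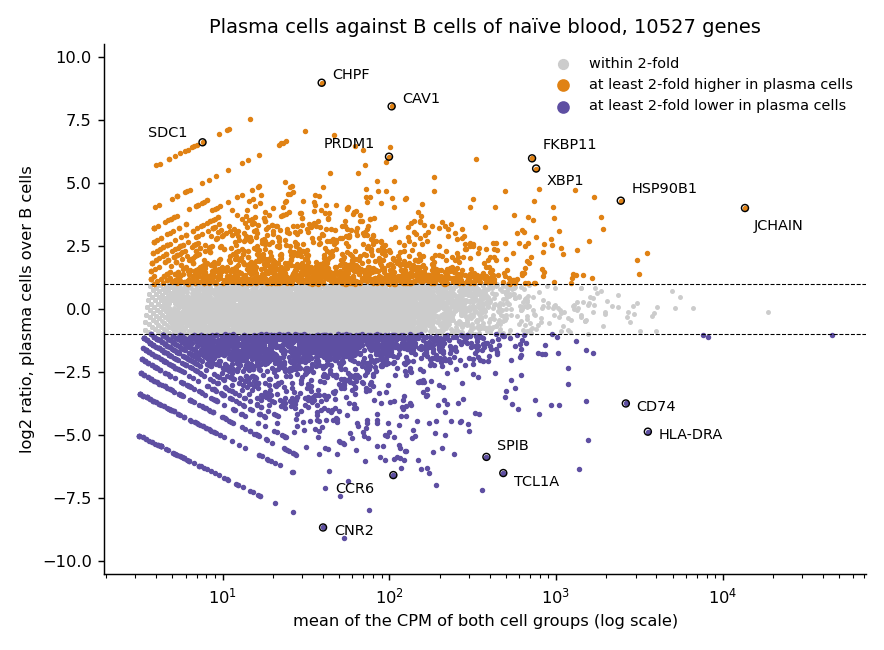
Log2 ratio of plasma cells to B cells of naïve blood (y axis) against the mean CPM of both groups (x axis, log scale), with 1 point per gene and dashed lines at 2-fold. Secretory genes such as HSP90B1 and FKBP11 and the factor XBP1 stand high at large CPM, while HLA-DRA, CD74 and TCL1A stand low.

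Transcription factors of the switch were at opposite ends. PRDM1, which represses the B cell programme, was at 196 CPM in plasma cells and 2.84 in B cells (log2 ratio 6.04, interval 5.18 to 7.25), and XBP1, which drives ER expansion, at 1487 and 31.2 (5.57, 5.29 to 5.88). IRF4 was 1.82 higher, and MYBL2, a regulator of cycling cells, and ZBTB38 were 4.06 and 3.34 higher. On the other side, SPIB was at 12.8 against 752 CPM (−5.86, −6.43 to −5.38), followed by AFF3 (−5.85), CIITA (−5.38), IRF8 (−5.03), EBF1 (−4.89), BACH2 (−4.42) and PAX5 (−3.70). Of 26 factors measured, 6 were at least 2-fold higher and 17 lower, with a median of −2.22 against −0.17 over all genes. MYC, at 34.3 against 96.8 CPM, was among the 17, but at 0.268 and 0.254 UMIs per cell it was as frequent in a plasma cell as in a B cell.

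In the list of plasma cell markers, which holds surface, secretory and nuclear proteins, 16 of 19 measured genes were at least 2-fold higher and 1 lower, with a median of 4.00, the value of JCHAIN. GPRC5D (48 UMIs) and SDC1 (38) had no UMI in B cells and were at least 20.2-fold and 16.0-fold higher against a floor of 3 UMIs. SLAMF7 was at 207 against 5.99 CPM, CD38 at 606 against 29.0, and the water channel AQP3 at 362 against 9.46, though T cells had 341. In this list TNFRSF13B was at −1.06 and FCRL5 at −0.92, and CD27, a memory marker, at 0.67. The receptors for BAFF and APRIL, survival ligands of the lineage, were thus unequal: TNFRSF17 (BCMA), which chose the cells, was at 683 against 11.4 CPM, TNFRSF13B (TACI) at 214 against 445 and TNFRSF13C (BAFF-R) at 43.9 against 373 (−3.08). Per cell, however, TNFRSF13B had 1.67 UMIs in plasma cells and 1.17 in B cells, so that its direction turned, and TNFRSF13C 0.343 and 0.979. Besides TNFRSF17, 3 genes of the BAFF and APRIL list were measured, all at least 2-fold lower, with a median of −1.82.

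Genes of B cell identity were lower across their list. Of 30 genes measured, 29 were at least 2-fold lower and none higher, with a median of −4.66. TCL1A was at 10.4 against 955 CPM (−6.50) and CD22, an inhibitory receptor, at 8.38 against 277 (−5.02), whereas FCER2 (CD23) was at −0.86. CD79A and CD79B, the signalling chains of the B cell receptor, were at −2.97 and −2.34 but still had UMIs in 68.2 and 90.3% of plasma cells at full depth. After thinning, these shares were 24.3 and 36.4%, against 86.6 and 85.0% of B cells. Of 27 genes of receptor signalling, 21 were at least 2-fold lower and none higher, with a median of −1.83, from CD22 to VAV1 (0.55). Of its kinases, BLK was at −4.42, LYN at −1.28, SYK at −1.34 and BTK at −0.81. On UMIs per cell LYN and SYK turned direction, to 0.30 and 0.24. BTK turned too, with 1 UMI per plasma cell and 0.591 per B cell.

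Antigen presentation by MHC class II was lower in 14 of 18 genes and higher in none, with a median of −3.70. HLA-DRA was at 237 CPM in plasma cells, 6866 in B cells (−4.86, −4.98 to −4.74) and 223 in T cells, and CD74, the invariant chain, at 365, 4876 and 337. After thinning, HLA-DRA had a UMI in 13.1% of plasma cells, 98.8% of B cells and 12.2% of T cells. The plasma cell value was uneven: the 56 cells with an MS4A1 UMI were at 862 CPM and the other 265 at 98.8 CPM. HLA-DMB, a peptide exchange factor, was at −5.73 and HLA-DPB1 at −5.20. CIITA, the transactivator of the pathway, was at −5.38, while RFXANK (0.25), RFXAP (−0.29) and RFX5 (−0.95), which bind the same promoters in all cells, were within 2-fold.

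**Figure D4:**
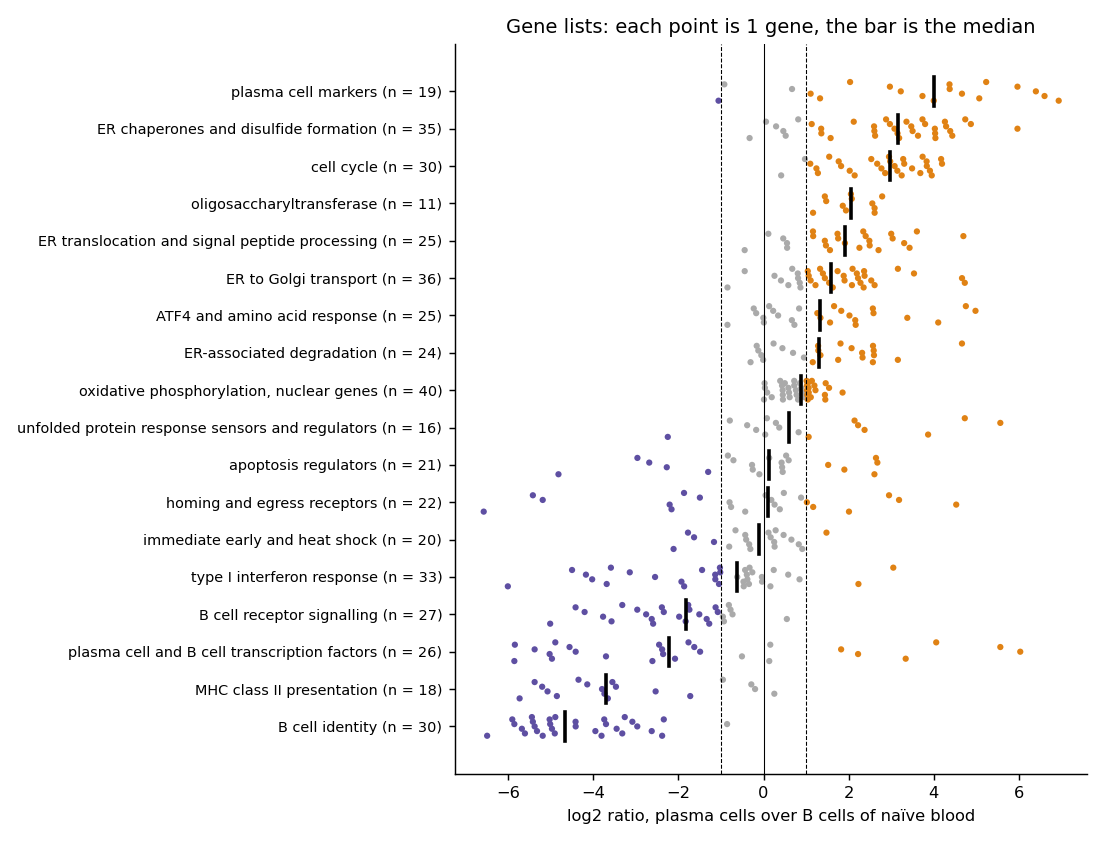
Log2 ratio of plasma cells to B cells of naïve blood for each measured gene of 18 lists, 1 point per gene and a bar at the median, ordered by median. Plasma cell markers (4.00), ER chaperones (3.15) and cell cycle genes (2.96) stand highest, MHC class II (−3.70) and B cell identity (−4.66) lowest.

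The secretory route was higher at each step. For entry into the ER, 20 of 25 genes were at least 2-fold higher and none lower (median 1.91), led by SEC11C of the signal peptidase, at 2493 against 95.9 CPM (4.70), SSR3 of the translocon-associated complex (3.61) and SEC61A1, the translocon channel (3.43), while SRP14 was at 0.11. All 11 measured subunits of the oligosaccharyltransferase, which attaches N-glycans, were at least 2-fold higher, from OST4 (1.16) to STT3A (2.79). Of ER chaperones and disulfide enzymes, 29 of 35 were higher and none lower, with a median of 3.15. Here FKBP11 was at 1413 against 22.4 CPM (5.97), SDF2L1 at 1524 against 56.8 (4.74), HSPA5 (BiP) at 3208 against 148 (4.44) and HSP90B1 (GRP94) at 4650.4 against 237 (4.29). PPIB and CALR were 3.19 and 3.63 higher, whereas DNAJC10 (−0.33) and SELENOF (0.06) were within 2-fold. T cells had 200 CPM of HSPA5 and 262 of HSP90B1, near B cells. Summed over the list, chaperones made up 32173 CPM in plasma cells, 3963 in B cells and 4396 in T cells.

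Quality control and export followed the same direction. In ER-associated degradation 15 of 24 genes were at least 2-fold higher and none lower (median 1.31), with DERL3 at 4.67, the lectin ERLEC1 at 3.16 and the ubiquitin enzyme UBE2J1 at 2.60, whereas UBE2G2 was at −0.30 and ERLIN2 at −0.16. Of 36 genes of transport to the Golgi, 26 were higher and none lower (median 1.59): the cargo receptor LMAN1 was at 957 against 37.5 CPM (4.67), KDELR3 and KDELR2, which return ER proteins, at 4.73 (3 UMIs in B cells, 3.34 to 7.25) and 3.54, and the coat component SEC24D at 3.16, while SEC24B was at −0.85. MCFD2, the partner of LMAN1, was at 0.87. Nuclear genes of oxidative phosphorylation were higher by less, with 17 of 40 past 2-fold, none lower and a median of 0.87, from UQCRQ (1.86) to ATP5F1E (0.01).

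Transcripts of the sensors of the unfolded protein response were unequal, and the activity of its branches was not tested. Of 16 sensors and regulators measured, 7 were at least 2-fold higher and 1 lower (median 0.60). ERN1 (IRE1), the kinase that splices XBP1 mRNA, was at 66.6 against 4.42 CPM (3.87), EIF2AK3 (PERK) at 65.8 against 14.8 (2.14) and WFS1 at 12.4 against 0.315 (4.73, with 1 UMI in B cells and an interval of 2.71 to 10.64), while ATF6 was at 58.7 against 47.9 (0.29, −0.05 to 0.63). CREB3L2 was 2.22 higher and CREBRF 2.25 lower. Downstream of PERK, ATF4 was at 1.06 but DDIT3 (CHOP), which accompanies prolonged stress, at −0.17 (−0.61 to 0.26), PPP1R15A at −0.38 and TRIB3 at −0.23. Even so, 14 of 25 genes of the ATF4 and amino acid response were at least 2-fold higher and none lower (median 1.34). The serine synthesis enzymes PHGDH and PSAT1 were at 140 against 5.05 (4.76) and 78.6 against 4.42 CPM (4.11), the transporters SLC7A11 and SLC3A2 at 4.98 (1 UMI in B cells, interval 2.98 to 10.89) and 2.02, and ASNS at 1.66, whereas SESN2 was at −0.85.

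The 15 genes with the highest ratios among 4596 with at least 100 UMIs and 50 CPM in either group included PRDM1, XBP1 and FKBP11 from the lists above. The genes that chose the cells were left out of this ranking, among them TNFRSF17 at 5.89. CHPF, a chondroitin synthesis factor, had 197 UMIs in plasma cells and none in B cells, at least 83.1-fold higher against the floor of 3 UMIs. CAV1, the scaffold of caveolae, was at 206 against 0.631 CPM (8.03, 6.49 to 11.40) and had a UMI in 66.7% of plasma cells, 0.165% of B cells and 1.16% of T cells. ALDH1L2 (7.04, 5.13 to 12.94), GLDC (6.88, 5.33 to 10.25) and PYCR1 (5.40), mitochondrial enzymes of folate, glycine and proline metabolism, stood beside the serine enzymes. The others were UCHL1 (6.44), HRASLS2 (6.40), NT5DC2 (6.31), NUCB2 (5.95), FNDC3B (5.83), TRIB1 (5.70) and CADM1 (5.41). NUCB2, a calcium-binding protein, was the most abundant of these, at 654 against 10.4 CPM, with 148 in T cells.

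At the other end, AL139020.1 and the cannabinoid receptor CNR2 had 341 and 254 UMIs in B cells and none in plasma cells, at least 89.9-fold and 66.9-fold lower. MS4A7 (476 UMIs in B cells), RASGEF1B (319), NCR3 (260), MYO7B (167) and LINC01013 (164) had 1 UMI each over all plasma cells, and LST1 and CCL17 had 2. MARCH1, a ligase that removes MHC class II from the surface, was at −6.98 (2.79 against 378 CPM), and the chemokine receptor CCR6 at −6.58. S100A12, S100A9 and S100A8 also ranked here, but these monocyte genes had UMIs in 0.661, 1.90 and 1.98% of B cells, and 1 B cell barcode held 1762 UMIs of the monocyte list, so that these B cell sums rest on few barcodes.

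Receptors of homing and egress went both ways, with 6 of 22 at least 2-fold higher (27.3%), 7 lower (31.8%) and a median of 0.12. The shares over all genes were 14.7 and 22.7%. CCR2, a receptor of inflammatory chemokines, was at 69.0 against 2.84 CPM (4.53), the selectin ligand SELPLG at 133 against 14.5 (3.19), and the integrin chains ITGB1 and ITGA4 at 1.17 and 1.02. Follicle and lymph node receptors were lower, with CCR7 at 3.99 against 179 CPM (−5.42) and CXCR5 at 0.798 against 36.3 (−5.19, −8.57 to −3.62). The mucosal receptor CCR10 had 17 UMIs in plasma cells (2.01), CCR9 had no UMI in either group and ITGB7 was at 0.05. CXCR4 (−0.80) and CXCR3 (0.18), receptors for bone marrow and inflamed tissue, were within 2-fold. S1PR1, which guides cells into blood, was at −1.50, but turned to 0.08 on UMIs per cell.

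Regulators of apoptosis went both ways as well, with 5 of 21 higher (23.8%), 5 lower (23.8%) and a median of 0.13. Over all genes, 14.7% were higher and 22.7% lower, so the lower share was near that of all genes. The death-promoting BCL2L11 (2.64), BIK (2.61) and BAK1 (1.90) and the protective BCL2L1 (1.52) were higher. The protective BIRC3 was at 20.3 against 580 CPM (−4.82), BCL2 at 17.2 against 135 (−2.96) and BCL2A1 at −2.69, and MCL1, on which plasma cells depend, was at 600 against 415 (0.53).

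Genes of the type I interferon response were lower in 16 of 33 (48.5%, against 22.7% over all genes) and higher in 2 (6.06%, against 14.7%). Their median of −0.62 turned to 0.96 on UMIs per cell. IFI27 and IFI6 were at 249 against 29.96 (3.05) and 911 against 194 CPM (2.23), ISG15 and ISG20 at 0.85 and 0.16, while IFIT2 was at 2.00 against 141 CPM (−6.01), TRIM22 at −4.50, IFITM2 at −4.17 and IFIT3 at −3.59. IFI27 had a UMI in 32.7% of plasma cells. Of 20 immediate early and heat shock genes, which can reflect handling, 15 were within 2-fold, 1 was higher (5%) and 4 lower (20%, near the share over all genes). FOS was at 1.48, JUN at 0.83, IER5 at −2.11 and BTG1 at −1.78 (median −0.10).

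Many plasma cells were cycling. Of 30 cell cycle genes, 28 were at least 2-fold higher and none lower (median 2.96), led by TK1 (4.20) and PCLAF (4.17), factors of DNA synthesis, while MCM5 was at 0.41 and CKS1B at 0.97. MKI67 or TOP2A had a UMI in 114 of 321 cells (35.5%). Thinned to 1000 UMIs, MKI67 was found in 12.8% of plasma cells, 0.584% of B cells and 3.38% of T cells. Cell cycle genes took a median of 3 of 1000 thinned UMIs per plasma cell, from 0 to 25, and 121 cells had more than the 90th percentile of B cells, which was 4.

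The cells varied along this axis. The 114 with MKI67 or TOP2A had a median of 18202.5 UMIs and 15.5% immunoglobulin, and the other 207 had 10905 UMIs and 29.7%. Summed over each set and scaled to CPM, JCHAIN was lower in the cycling cells (14797 against 37506), as were XBP1 (1067 against 1955) and CD38 (423 against 808). HSPA5 (3119 against 3308) and PRDM1 (178 against 217) were similar on that scale. These values are shares of RNA. UMIs per cell, of which the cycling cells had more in all, were not compared for these genes, so these directions apply to shares only. TNFRSF13C and LTB were 2.29 lower in the cycling cells on the log2 scale, with 20 against 90 and 15 against 68 UMIs. Over the 321 cells, the immunoglobulin share and thinned cell cycle UMIs had a Spearman's rho of −0.58, and the immunoglobulin share and ER entry genes one of 0.57. These are descriptions across cells of 1 library, which share depth and sum constraints, and cell cycle UMIs had a rho of 0.57 with total UMIs. The plot of both measures shows that cells above 40% immunoglobulin (55 cells) had a median of 1 cell cycle UMI and those under 10% (31 cells) of 13.

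**Figure D5:**
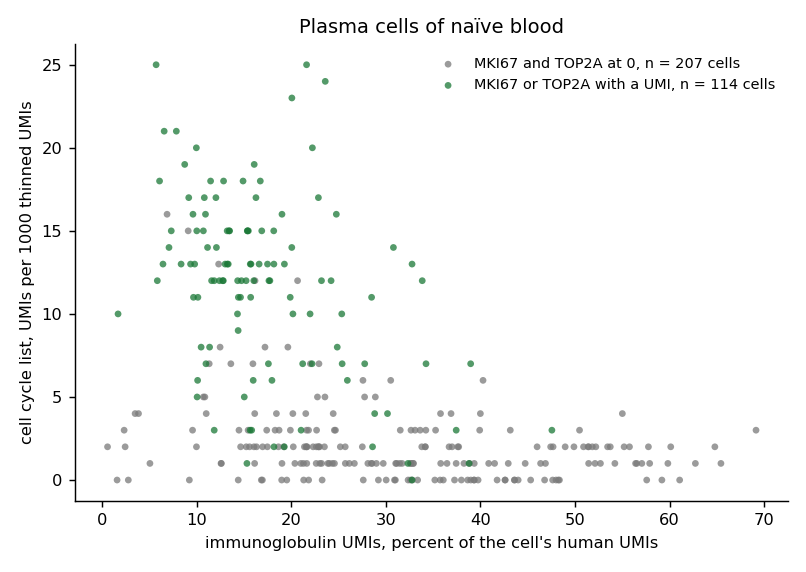
Immunoglobulin UMIs as percent of a cell's human UMIs (x axis) against UMIs of the cell cycle list among 1000 thinned UMIs (y axis), 1 point for each of the 321 plasma cells of naïve blood, green where MKI67 or TOP2A had a UMI. High cell cycle values lie at low immunoglobulin shares, and cells above 40% immunoglobulin have few cell cycle UMIs.

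Other subsets were smaller. The 28 cells with SDC1 had a median immunoglobulin share of 43.1%, XBP1 at 4418 CPM and MZB1 at 8855, above the values of all plasma cells together (1487 and 4143), and cell cycle genes at 3763 CPM summed against 8221. The 56 cells with an MS4A1 UMI had 3896 CPM summed over the MHC class II list, against 1137 in the 265 without, and 595 against 194 of CD79A, with XBP1 at 1033 against 1588. In the 9 cells without an XBP1 UMI, HLA-DRA reached 3349 CPM at a median of 5279 UMIs. Whether cells with both programmes are intermediates or mixed barcodes was not tested. Without the 56 MS4A1-positive cells, the B cell identity median was −5.41 in place of −4.66 and that of MHC class II −4.28 in place of −3.70.

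Markers of other cells were low in plasma cells. Summed per cell, the T cell list had a median of 0 UMIs and a maximum of 7 (17 and 99 in T cells), with CD4 at 0. Plasma cells were chosen without CD3 UMIs and T cells with at least 2. The T cell list values are thus partly set by this choice and support nothing. The NK cell list had a maximum of 3 with KLRD1, KLRF1, PRF1 and NCAM1 at 0. The monocyte list had a maximum of 15 with CD14, S100A12 and CSF1R at 0, the basophil and mast cell list a maximum of 15 with TPSAB1, TPSB2 and HDC at 0, and the erythroid and platelet list no UMI. Plasmacytoid dendritic cells, which share several genes with plasma cells, were distinct in their defining markers, with CLEC4C at 0 and 5 UMIs of LILRA4 over all cells. The median of 3 UMIs for that list came mainly from TCF4 (698 UMIs) and PLAC8 (285), which B cells hold too (1255 and 4372).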

How the data were processed

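Blood of humanised mice was profiled by droplet scRNAseq with a 3′ kit. Per the labels, the counts the authors deposited are UMI counts per gene and barcode from Cell Ranger 3.1.0 on a combined GRCh38 and mm10 reference, with the filtered barcodes of each library and all libraries from 1 sequencing run. There was 1 library per condition, and no doublets were removed here before the comparison.

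From these counts, cells were chosen by the conditions given above. T cells had at least 2 CD3 UMIs, no MS4A1 or CD79A UMI and under 2 of MZB1. This last limit was set after seeing values. The members and the 26 gene lists were chosen with earlier results of these data known. Counts of human genes were summed per cell group and divided by the total outside 408 immunoglobulin, 90 ribosomal and 13 mitochondrial genes and genes tied to donor sex. The log2 ratio used 0.5 added counts, and genes needed 20 UMIs over both groups. Exact binomial intervals were used for shares and conditional binomial intervals for ratios (scipy 1.17.1). Cells were thinned to 1000 UMIs with a fixed seed. Genes named were the 15 highest and 15 lowest ratios with at least 100 UMIs and 50 CPM (genes that chose the cells left out), with the 2 highest and 2 lowest of each list and members whose role the list turns on. Some others of each list were named after their values were seen. Alternatives used scanpy 1.11.5 (Scrublet, the highest 0.8% of scores per 1000 barcodes) and edgeR 4.0.16 (TMM factors). Scripts were tested on simulated data. Each deposited matrix was of 1 library, so no columns of other samples were present. Sequences of the human genes were not analysed here.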

Additional observations from a re-analysis of the deposited data

How the results depend on the processing

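The conditions on the cells moved the share of plasma cells in naïve blood to 4.26% with at least 2 TNFRSF17 UMIs and to 5.76% with no condition on CD3, and that in SCI blood to 0.0482% (3 cells) with at least 4 MZB1 or at least 2 TNFRSF17 UMIs. Genes at least 2-fold higher and lower numbered 933 and 3793 with immunoglobulins kept in the total, 6903 and 669 on mean UMIs per cell, 3335 and 5236 from at least 1 UMI, and 1007 and 1390 from at least 100 UMIs, where more or fewer genes were tested. Under the other 11 settings both counts stayed within 1.5 times. No list with a median beyond 2-fold changed sign under any of the alternatives. Over all genes at least 2-fold apart, mean UMIs per cell turned the direction of 986 and thinning that of 85. Among the 481 genes in the rankings or lists, only those beyond 2-fold that turned are named here, and genes within 2-fold can turn as well. Mean UMIs per cell turned the direction of BCL10 (0.066), BMF (0.27), DUSP1 (0.41), FCGR2B (0.50), IFI44 (0.55), IFIT1 (0.13), IRF9 (0.53), LYN (0.30), MALT1 (0.45), MS4A2 (0.040), MYC (0.085), PLSCR1 (0.44), S1PR1 (0.079), SAMD9L (0.56), STAT2 (0.44), SYK (0.24) and TNFRSF13B (0.52), all lower after scaling, and thinning turned BMF (0.32). With TCL1A-negative B cells, TCL1A was at 4.90, which the choice of cells sets. No paired analysis was possible because there was 1 library per condition, and for the same reason no library could be left out. Depth limits genes of few UMIs, 18 sham and SCI cells support no account of a programme, and differences between conditions have no replicate check.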
